A study of Homo sapiens with 12 samples.

Results

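Tumor cell lines that had been driven through repeated exposure to hydroxychloroquine (HCQ) were compared at the end of that evolution, by polyA RNA sequencing of 3 HCQ-evolved pools labelled CCL218 and 3 HCQ-evolved pools labelled OVCAR3. These are 6 of the 12 libraries of the series. Genes with at least 1 CPM (counts scaled to library size) in at least 3 of the 6 libraries were kept, which left 12207 of 28278 gene symbols. Differences are given throughout as log2 of CCL218 over OVCAR3, so that a positive value is a higher level in CCL218.

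HCQ is an antimalarial weak base. It gathers in the acidic lumen of lysosomes, where it raises the pH and blocks the last step of autophagy, the pathway by which cells enclose and digest their own proteins and organelles. Autophagy recycles nutrients and removes damaged mitochondria, and tumor cells often lean on it under stress.

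The study names OVCAR3 as ovarian, of high-grade serous type, whereas CCL218 is a line from a colorectal adenocarcinoma. HCQ-evolved cells (passage 15) had been given 15 HCQ exposures of 48 h, each followed by regrowth in fresh medium, with 7 days without drug after the last one, and control cells (passage 19) were passaged without HCQ. Each group grew on a single multiwell plate, from which wells at the left (L), in the middle (M) and at the right (R) were each pooled. Pools of a group are thus parts of 1 plate, and p-values measure the spread between these pools only. Treatment and passage number differ together between HCQ-evolved and control cells and cannot be told apart.

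The 6 libraries held 47051077 to 59965861 counts and 17033 to 18244 genes with at least 1 count. OVCAR3 R stood apart from the other pools of its plate. Over 10318 genes, the SD of the log2 ratio between pools was 0.666 for OVCAR3 L and R and 0.725 for M and R, against 0.166 for L and M and 0.155 to 0.248 within CCL218. Deviations from the 6-library mean were correlated across genes with transcript length at Spearman's rho of -0.656, -0.659 and 0.431 in OVCAR3 L, M and R, and at 0.143, 0.508 and 0.602 in CCL218 L, M and R. Results are therefore given with and without OVCAR3 R, and with a trend of transcript length and GC content removed where that bears on them.

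Between the HCQ-evolved lines, 1662 of 12207 genes (13.6%) passed an adjusted p of 0.05 in edgeR, of which 780 (6.39%) were higher and 882 (7.23%) lower in CCL218. The median log2 difference over all tested genes was -0.01. Only 278 called genes differed by a log2 of at least 2, and 182 of these were higher in CCL218. Without library scaling by TMM the median of all genes moved by 0.13, and the calls split into 992 higher and 655 lower. Without OVCAR3 R, 8149 of 12070 genes (67.5%) were called, 4111 (34.1%) higher and 4038 (33.5%) lower. All 1588 of the genes called with 6 libraries that could be tested without OVCAR3 R were called there in the same direction. That fit reuses the other libraries and lacks the pool that stood apart, so this is no independent check. Removing the trend of length and GC content gave 1150 genes higher (9.42%) and 1759 lower (14.4%). Leaving out another pool gave 152 to 612 calls, and 141 genes were called whichever pool was left out.

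Control pools were compared in the same way, but were themselves widely spread. The SD of the log2 ratio between pools was 0.376 to 0.578 in control OVCAR3 and 0.193 to 0.645 in control CCL218. Correlations of their deviations with transcript length ran from -0.585 to 0.662. Fewer genes are called where pools of a group spread more, so the share called does not by itself show how far the lines differed without HCQ. Between control CCL218 and control OVCAR3, 249 of 12324 genes (2.02%, with 0.941% higher and 1.08% lower) were called. Once plate position was entered as a block, 4477 were called (36.3%, with 17.6% higher and 18.8% lower). Control pools of the same position deviated together at L and M (correlations of 0.90 and 0.88) but only weakly at R (0.30). The 158 genes called in both comparisons were 9.51% of those called between HCQ-evolved pools and 63.5% of those called between control pools, and 153 had the same direction in both. A test of the difference between the line differences (evolved minus control) called 110 of 12613 genes (0.872%), 87 of them above 0 (0.69%) and 23 below (0.182%). Of the 5 genes that were called in both comparisons with opposite directions, ATF3, EGR3, FOSB and HBEGF are genes switched on within minutes by growth factors or stress, and CDKN1A encodes the cell cycle inhibitor p21.

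Markers of the labelled tissues were read first. Of 22 markers of intestinal epithelium, 11 averaged at least 5 CPM in both HCQ-evolved groups, and of 20 markers of Müllerian epithelium and serous ovarian cancer 8 did. All 12 general epithelial markers did so as well. Pools labelled OVCAR3 thus carried intestinal transcripts. VIL1, which encodes the brush border protein villin, was at 133, 118 and 78.5 CPM in OVCAR3 and at 160, 197 and 198 CPM in CCL218. LGALS4, an intestinal galectin, was at 490, 457 and 133 CPM in OVCAR3 and at 833, 792 and 730 CPM in CCL218. VIL1 and LGALS4 missed the threshold (adjusted p = 0.0731 and 0.153, edgeR) and passed it without OVCAR3 R. In bulk RNA, fewer cells of a type and less RNA per cell cannot be told apart.

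Defining serous ovarian factors were scarce under the OVCAR3 label. WT1, a transcription factor used to diagnose serous ovarian carcinoma, was at 1.78, 2.35 and 0.653 CPM in OVCAR3 and at 0.903, 1.09 and 1.39 CPM in CCL218. SOX17, a factor of the Müllerian duct, had 0 counts in all 12 libraries. PAX8, its usual partner, was found at like levels under both labels, at 8.07, 7.23 and 10.1 CPM in OVCAR3 and 10.2, 8.4 and 10.01 CPM in CCL218. KRT20, a keratin of mature colon cells, stayed under 0.1 CPM in every pool. The OVCAR3 label is therefore used here as a name of pools and not of a tissue. Of 14 markers of fibroblasts, endothelium and blood, 1 averaged 5 CPM or more in either group, and their summed level was 30.7 to 44.6 CPM in OVCAR3 and 51.1 to 56.4 CPM in CCL218.

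The level of intestinal markers differed between labels. Of 17 tested, 10 were higher and 1 lower in CCL218 (6.39% and 7.23% over all genes), with a median of 1.84, and 13 were higher and 2 lower without OVCAR3 R (34.1% and 33.5% over all genes, list median 1.49). CEACAM6, on the plus strand of chromosome 19 (41750977 to 41772211), is a cell adhesion glycoprotein raised in colorectal tumors and was at 1.54, 1.5 and 2.46 CPM in OVCAR3 pools and at 92.3, 122 and 89.2 CPM in CCL218 pools. All CCL218 pools lay far above all OVCAR3 pools, with a log2 difference of 5.78 (standard error 0.28, adjusted p = 0.00111). CEACAM5, which encodes the tumor marker CEA, rose with it from 3.91, 3.70 and 7.93 CPM to 53.6, 67.4 and 61.8 CPM (log2 difference 3.55, standard error 0.34, adjusted p = 0.00318). CDH17, the liver-intestine cadherin, was at 4.26, 4.51 and 1.71 CPM against 44.9, 57.4 and 55.3 CPM (log2 difference 3.91, standard error 0.39, adjusted p = 0.00357). These 3 adhesion molecules were called whichever pool was left out.

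Transcription factors of the intestinal program followed the same order, with more spread. CDX2, the master regulator of intestinal identity, was at 8.26, 9.72 and 0.803 CPM in OVCAR3 and at 69.8, 62.2 and 71.3 CPM in CCL218. Its log2 difference was 3.43 with OVCAR3 R (adjusted p = 0.0395) and 2.90 without it (adjusted p = 2.94e-08). HNF4A, a nuclear receptor of gut and liver, was at 55.1, 44.8 and 19.8 CPM against 139, 144 and 148 CPM (log2 difference 1.84, adjusted p = 0.0239). OVCAR3 R was the lowest pool for CDX2, HNF4A and GPA33. ASCL2, a factor of intestinal stem cells, was the exception and was lower in CCL218, at 1.23, 0.911 and 1.05 CPM against 11.1, 10.7 and 9.54 CPM (log2 difference -3.30, adjusted p = 0.00111).

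In control pools the same markers lay closer together. Their median was 0.36, with 2 of 18 called higher and 0 lower (0.941% and 1.08% over all genes). With the block for position 9 were higher and 5 lower (17.6% and 18.8% over all genes). CDH17 was at 2.43 to 4.87 CPM in all 6 control libraries and did not separate the labels. The difference between labels was larger in HCQ-evolved pools than in controls for CEACAM6, CDH17, CEACAM5 and EPHB2 by the test of the difference (3.56, 3.71, 2.07 and 2.57 on the log2 scale, adjusted p = 0.00244, 0.00555, 0.0325 and 0.0197).

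Of 13 tested ovarian markers, 2 were higher and 4 lower in CCL218 (6.39% and 7.23% over all genes), with a median of -0.42. Without OVCAR3 R 2 were higher and 8 lower (34.1% and 33.5% over all genes). MUC16, the source of the ovarian tumor marker CA125, was at 21.4, 21.1 and 50.1 CPM in OVCAR3 and at 3.65, 4.70 and 5.97 CPM in CCL218 (log2 difference -2.69, adjusted p = 0.0118). WFDC2, which encodes the serum marker HE4, was at 36.7, 42.2 and 36.9 CPM against 5.93, 4.59 and 4.48 CPM (log2 difference -2.95, adjusted p = 0.00111). The kallikreins KLK6 and KLK8 were lower too (-1.16 and -1.55). MSLN, the cell surface protein mesothelin, ran the other way and was at 9.31, 9.07 and 2.21 CPM in OVCAR3 and at 128, 110 and 84.7 CPM in CCL218 (log2 difference 3.96, adjusted p = 0.00929). For MUC16, WFDC2 and MSLN, no CCL218 pool overlapped an OVCAR3 pool.

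**Figure D1:**
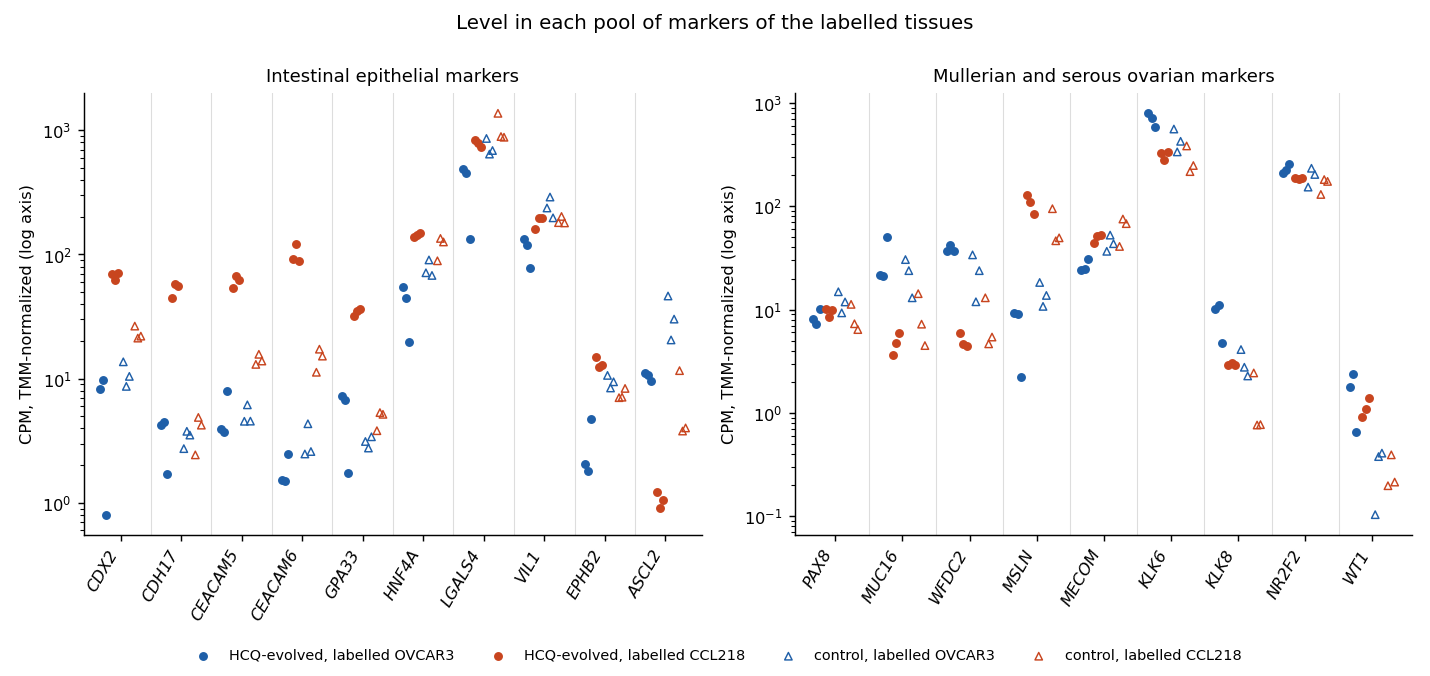
Level of tissue markers in each pool, in TMM-normalized CPM on a log axis, with filled circles for HCQ-evolved and open triangles for control pools, and blue for the OVCAR3 label and orange for CCL218. CDX2, CDH17, CEACAM5 and CEACAM6 are spread apart in HCQ-evolved pools, whereas VIL1, PAX8 and NR2F2 lie within a narrow range in all 4 groups.

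Among called genes with separate pools and at least 5 CPM on average in the higher group, the 12 largest were REG4, CEACAM6, PLBD1, ADH6, ST8SIA6, AUTS2, ZNF462, EPB41L2, RAVER2, RASD2, SOD3 and CDH3, with log2 differences of 6.51 down to 4.09. ADH1C, an alcohol dehydrogenase, had a larger fitted value but stayed under this level. REG4 (chromosome 1, 119794017 to 119811580, minus strand), a secreted lectin of enteroendocrine and goblet cells, was at 0.489, 0.463 and 0.100 CPM in OVCAR3 and at 33.1, 32.5 and 30.5 CPM in CCL218 (standard error 0.49, adjusted p = 0.0018). It was already high in control CCL218 at 39.7 to 52.1 CPM. RAVER2, an RNA-binding protein, was at 2.20, 2.35 and 1.34 CPM against 35.4, 39.4 and 36.9 CPM (log2 difference 4.24, standard error 0.25).

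In HCQ-evolved CCL218 pools, ST8SIA6 and RASD2 of this group were higher than in every other library. ST8SIA6, a sialyltransferase, was at 7.61, 9.35 and 8.42 CPM there and at or under 0.541 CPM in each of the remaining 9 libraries, and the test of the difference was not passed (2.32, adjusted p = 0.37). RASD2, a small GTPase, was at 24.8, 32.3 and 20.8 CPM in HCQ-evolved CCL218 and at 1.26, 1.52 and 1.47 CPM in HCQ-evolved OVCAR3. Control pools held 7.94 to 15.4 CPM in CCL218 and 4.07 to 4.33 CPM in OVCAR3, so that HCQ-evolved OVCAR3 also lay below its controls. PLBD1, a phospholipase B-like protein, had 6.14, 7.05 and 6.60 CPM against 0.210, 0.270 and 0.100 CPM. For RASD2 and PLBD1 the difference between labels exceeded that of the controls (2.77 and 3.16, adjusted p = 0.00449 and 0.00282).

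Fewer genes were nearly silent under one label and clear under the other. With at least 5 CPM in all pools of one label and at most 1 CPM in all of the other, 11 genes were on in HCQ-evolved CCL218 and 3 in HCQ-evolved OVCAR3, namely LY6D, MYEF2 and PTPN7. The same reading gave 3 genes in the control pools.

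The largest differences downward were partly carried by a single pool. The 12 genes by the same rule were MAGEA3, KIAA1324L, LY6D, CST1, MYEF2, APOBEC3G, PTPN7, SCN9A, APOBEC3C, GJB6, NNMT and SPINK5. APOBEC3C, a cytidine deaminase that restricts viruses and retroelements, was at 56.9, 67.1 and 493 CPM in OVCAR3 and at 13.9, 9.11 and 19.7 CPM in CCL218. OVCAR3 R exceeded every other library, and the log2 difference was -3.85 with it and -2.13 without it. APOBEC3G, from the same gene cluster, had 9.33, 12.8 and 140 CPM against 1.44, 1.15 and 2.07 CPM (-5.11 with OVCAR3 R and -2.83 without). KIAA1324L, CST1, SCN9A and PTPN7 were likewise highest in OVCAR3 R. They could not be tested without that pool, because too few libraries then passed 1 CPM. The same limit held for LY6D, MYEF2 and MAGEA3, which stayed under 1 CPM in every CCL218 pool.

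Steadier decreases were seen in 4 genes. NNMT, a methyltransferase that consumes nicotinamide and methyl groups, was at 45.0, 58.5 and 41.4 CPM in OVCAR3 and at 2.91, 2.40 and 4.83 CPM in CCL218 (log2 difference -3.83, standard error 0.32, adjusted p = 0.00236). SPINK5, a serine protease inhibitor, was at 17.7, 22.3 and 35.7 CPM against 1.44, 1.97 and 2.34 CPM, and GJB6, a gap junction connexin, at 15.6, 20.5 and 34.2 CPM against 1.56, 1.28 and 2.07 CPM. SPINK5 and GJB6 were also highest in OVCAR3 R, by a smaller margin than the APOBEC3 genes. LY6D, a surface protein of stratified epithelium, was at 15.6, 24.6 and 19.7 CPM against 0.616, 0.364 and 0.334 CPM. MAGEA3, a cancer-testis antigen, had 0 counts in every HCQ-evolved CCL218 pool and 15.9, 12.6 and 1.71 CPM in OVCAR3, which made its mean at least 164-fold higher in OVCAR3, taking 3 counts per library as the floor. This floor covers counting error only.

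**Figure D2:**
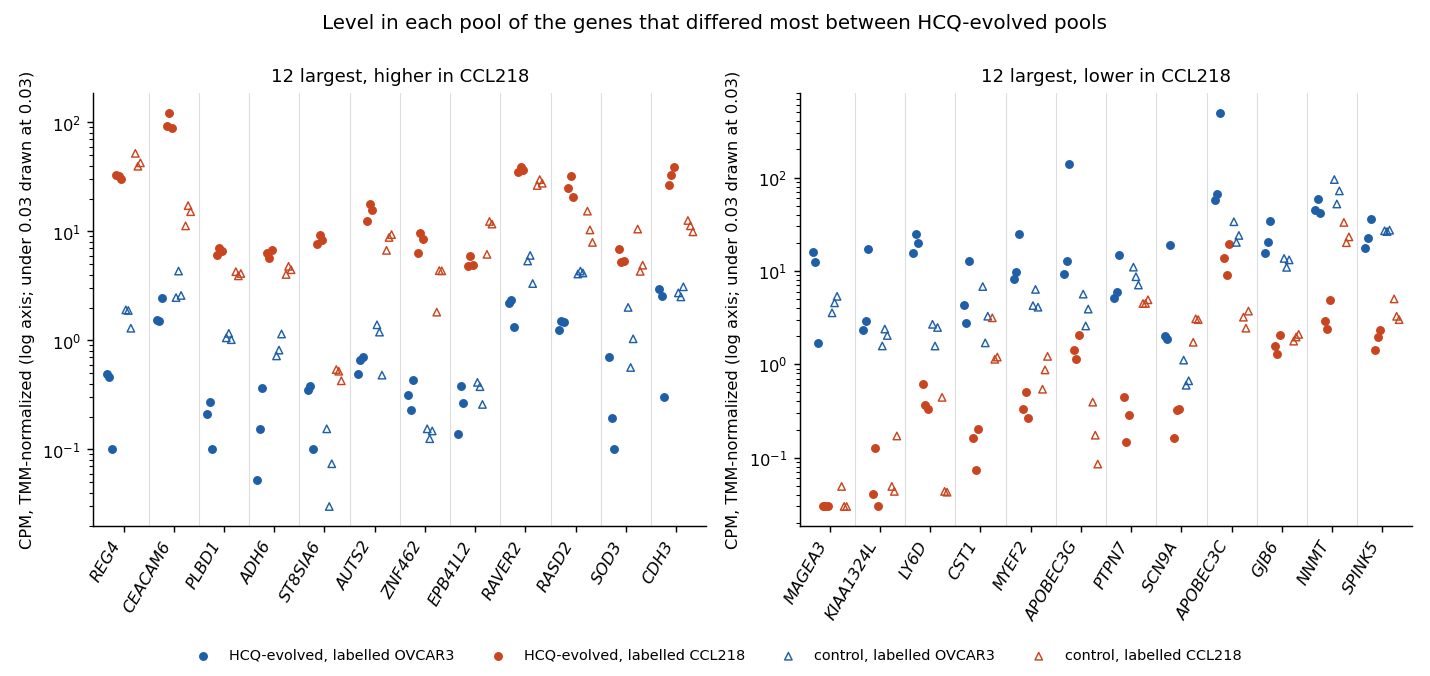
Level in each pool of the 12 genes with the largest log2 difference in each direction, in TMM-normalized CPM on a log axis, with symbols as for the markers and values under 0.03 CPM drawn at 0.03. APOBEC3C and APOBEC3G reach 493 and 140 CPM in a single OVCAR3 pool, whereas the pools of RAVER2 and NNMT lie closer together within each label.

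Intestinal markers had the largest share of calls in the upward direction (10 of 17), whereas immediate early genes formed the list with the largest number. These genes are transcribed within minutes of a growth factor, stress or attachment signal, through MAP kinases and serum response factor, and encode transcription factors such as FOS, JUN and the EGR family together with the phosphatases that end the signal. Of 38 tested members, 17 were higher and 0 lower in HCQ-evolved CCL218 (6.39% and 7.23% over all genes), with a median of 0.74, and 32 of 38 lay above 0. Without OVCAR3 R the median was 0.73, with 29 higher and 4 lower (34.1% and 33.5% over all genes). In control pools the order was the opposite, with a median of -0.47 and 0 higher and 6 lower (0.941% and 1.08% over all genes), or 2 higher and 23 lower with the block for position (17.6% and 18.8%). The test of the difference between evolved and control pools called 14 of 38 above 0 and 0 below (0.69% and 0.182% over all genes). Its median over the list was 1.29 (-0.03 over all genes).

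The list includes the EGR transcription factors. EGR1 lies on the plus strand of chromosome 5 (138465479 to 138469303) and was at 608, 539 and 558 CPM in HCQ-evolved OVCAR3 and at 1820, 1693 and 1704 CPM in HCQ-evolved CCL218 (log2 difference 1.61, standard error 0.12, adjusted p = 0.00163). Control pools overlapped, at 739 to 1752 CPM in OVCAR3 and 778 to 1406 CPM in CCL218. EGR2 was at 4.12, 2.51 and 2.24 CPM against 26.8, 22.6 and 23.8 CPM (log2 difference 3.04, adjusted p = 0.00275). EGR3 was at 0.0349, 0 and 0 CPM, which is at most 2 counts in a pool, against 1.89, 1.02 and 1.10 CPM, and was thus at least 23.1-fold higher in CCL218.

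Other members differed too. ATF3, a stress-induced factor, was at 7.72, 4.71 and 5.77 CPM in HCQ-evolved OVCAR3 and at 43.3, 26 and 26.1 CPM in HCQ-evolved CCL218 (log2 difference 2.38, adjusted p = 0.00635). In the controls it stood at 217, 194 and 164 CPM in OVCAR3 and at 59.1, 29.5 and 25.4 CPM in CCL218, so that the labels were in the opposite order (test of the difference 4.72, adjusted p = 0.00167). FOSB showed the same turn, with log2 differences of 0.84 in evolved and -1.71 in control pools. FOSB, KLF4 and JUN were chosen after their values were seen. KLF4, a factor of epithelial differentiation, was at 13.4, 11.5 and 7.72 CPM against 54.7, 54.7 and 47.7 CPM, and JUN at 610, 532 and 338 CPM against 1614, 1378 and 1344 CPM. CCN2, a secreted matrix protein under YAP and serum response factor, was at 8.52, 9.68 and 2.29 CPM against 79.9, 59.3 and 60.2 CPM (log2 difference 3.28, adjusted p = 0.0137).

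Levels were also set against the controls of the same label. In HCQ-evolved OVCAR3 pools EGR2, ATF3, FOSB and CCN2 were below every control OVCAR3 pool. For CCN2, HCQ-evolved and control CCL218 pools overlapped, at 59.3 to 79.9 against 62.3 to 79.7 CPM. For EGR2, HCQ-evolved CCL218 pools lay above control CCL218 pools, at 22.6 to 26.8 against 16.3 to 17.5 CPM. EGR1, with values given above, was likewise above every control CCL218 pool and below every control OVCAR3 pool. Levels of EGR1 and EGR2 thus differed from controls under both labels.

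**Figure D3:**
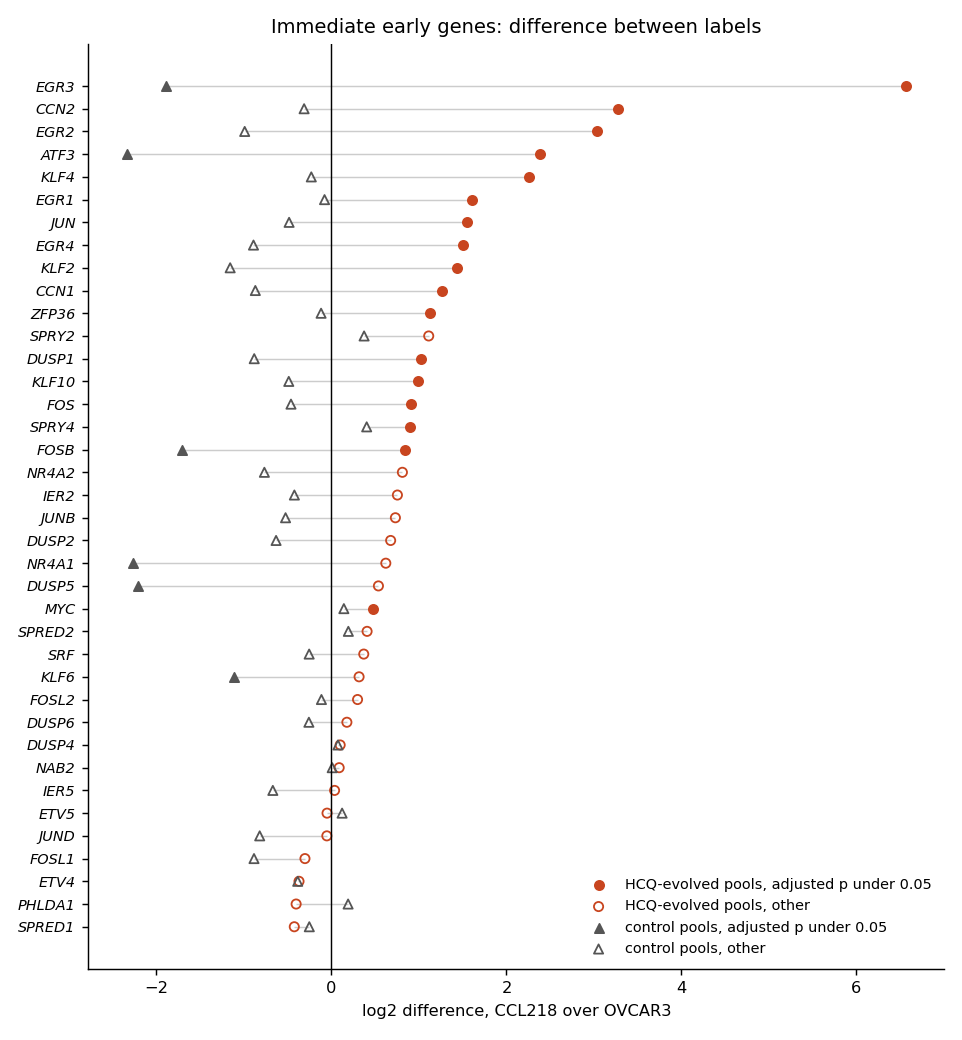
Log2 difference (CCL218 over OVCAR3) of the 38 tested immediate early genes in HCQ-evolved pools (orange circles) and control pools (grey triangles), filled where the adjusted p was under 0.05. Circles lie right of triangles for 35 of 38 genes, and EGR3, ATF3 and FOSB have filled symbols on both sides of 0, although the fitted value of EGR3 rests on OVCAR3 pools near 0 counts.

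Promoter sequence was read for this list because 17 of its members were higher and none was lower. The 250 bases before the RefSeq start (GRCh38.p14) were searched on both strands for the CArG box, the binding motif of serum response factor, and for TGACGTCA, the cyclic AMP response element. The letters of the motifs cannot overlap. A promoter was matched for 28 of the 38 tested members. A CArG box was present in 2 of these (7.14%) against 1.14% of 27305 promoters, and TGACGTCA in 2 (7.14%) against 1.77%. Over the promoters of tested genes the shares were 0.966% and 2.91%. A match is a description of letters and not of binding. EGR1 held 2 CArG boxes and DUSP1, a MAP kinase phosphatase chosen after its values were seen, held 1 TGACGTCA. The other holders, SRF with 2 CArG boxes and JUND with 1 TGACGTCA, were not called, so that each motif was present in 1 of the 13 called genes with a window, and the window of EGR2 held neither. The sequences are given 5′ to 3′ on the strand of the gene, with the matched letters in capitals, at chr5:138465229-138465478 (plus strand) for EGR1, chr5:172771196-172771445 (minus strand) for DUSP1 and chr10:62819168-62819417 (minus strand) for EGR2.
EGR1: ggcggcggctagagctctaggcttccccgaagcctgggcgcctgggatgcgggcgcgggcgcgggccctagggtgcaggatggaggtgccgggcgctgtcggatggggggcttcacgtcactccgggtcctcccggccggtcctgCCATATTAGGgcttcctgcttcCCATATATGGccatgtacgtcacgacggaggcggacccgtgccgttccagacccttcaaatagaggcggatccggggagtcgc
DUSP1: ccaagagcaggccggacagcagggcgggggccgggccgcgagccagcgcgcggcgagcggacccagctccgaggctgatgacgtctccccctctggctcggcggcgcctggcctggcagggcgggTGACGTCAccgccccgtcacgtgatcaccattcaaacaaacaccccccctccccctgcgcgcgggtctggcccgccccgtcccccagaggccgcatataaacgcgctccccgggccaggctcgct
EGR2: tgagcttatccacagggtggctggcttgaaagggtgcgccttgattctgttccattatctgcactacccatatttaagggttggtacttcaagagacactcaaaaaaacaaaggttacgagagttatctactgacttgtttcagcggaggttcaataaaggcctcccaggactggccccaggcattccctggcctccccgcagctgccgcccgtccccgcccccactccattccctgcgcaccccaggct
All 3 genes were higher in HCQ-evolved CCL218, with log2 differences of 1.61, 1.03 and 3.04.

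HBEGF and CDKN1A were called in opposite directions in HCQ-evolved and control pools. HBEGF, a ligand of the EGF receptor, was at 4.02, 3.70 and 3.46 CPM in HCQ-evolved OVCAR3 and at 9.75, 8.09 and 9.18 CPM in HCQ-evolved CCL218 (log2 difference 1.27, adjusted p = 0.0058). Control OVCAR3 held 53.6 to 59.4 CPM and control CCL218 11.6 to 13.1 CPM. Its test of the difference gave the smallest adjusted p among the named genes (3.43, standard error 0.19, adjusted p = 1.09e-05). CDKN1A was at 28, 21.5 and 26.2 CPM against 52.3, 41.5 and 40.9 CPM after evolution and at 59.9 to 69.2 against 19 to 20.7 CPM in controls (test of the difference 2.56, adjusted p = 0.000539). TRIB1, a pseudokinase that directs protein degradation, was at 302, 290 and 257 CPM against 711, 674 and 613 CPM (log2 difference 1.23). Control pools held 736 to 951 CPM in OVCAR3 and 437 to 523 CPM in CCL218, a difference that was not called without the block, and the test of the difference was passed (2.06, adjusted p = 0.00167). Among 10 tested EGFR ligands and ERBB receptors 2 were higher and 1 lower (6.39% and 7.23% over all genes), with ERBB3 at 0.66 and NRG4 at -1.94. HBEGF was the 1 member that passed the test of the difference (0.872% over all genes).

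Some members of the chromosome segregation machinery were lower in HCQ-evolved CCL218 and none was higher. This list holds kinetochore, spindle and checkpoint proteins that part the chromosomes at mitosis. Of 68 tested members, 23 were lower (7.23% over all genes) and 0 higher, with a median of -0.45, and in 43 all CCL218 pools lay below all OVCAR3 pools (18.2% over all genes). SKA3, a kinetochore protein, was at 72.7, 69.8 and 95.2 CPM in OVCAR3 and at 30.0, 31 and 33.7 CPM in CCL218 (log2 difference -1.33, standard error 0.16, adjusted p = 0.00535). AURKB, the mitotic kinase Aurora B, was at 77.5, 81.7 and 60.9 CPM against 41.4, 32.5 and 31.1 CPM (log2 difference -1.07, adjusted p = 0.0139). SPC24 of the NDC80 complex was at 58.3, 65.1 and 52.4 CPM against 29.8, 27.8 and 28.5 CPM (log2 difference -1.03, adjusted p = 0.00579). Without OVCAR3 R 41 members were lower and 9 higher (33.5% and 34.1% over all genes), with a median of -0.36, and 18 estimates lay above 0.

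In control pools the median of the segregation list was 0.11 and 0 of 68 members were called, or 15 higher and 3 lower with the block (17.6% and 18.8% over all genes). In the test of the difference all 68 estimates were below 0 (median -0.58, and -0.03 over all genes), of which 26 had an unadjusted p under 0.05 and 0 passed after adjustment in edgeR. Condensin and cohesin, the rings that fold and hold chromosomes, had 1 of 22 members called (13.6% over all genes). It was CDCA5 (sororin), at 133, 141 and 141 CPM in OVCAR3 and 71.5, 64.7 and 67.3 CPM in CCL218. The median of that list was -0.15 with OVCAR3 R and 0.14 without it.

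Of 46 DNA replication and licensing genes 12 were lower (7.23% over all genes) and 0 higher, with a median of -0.30. Without OVCAR3 R 25 were lower and 5 higher (33.5% and 34.1% over all genes). RFC3, a subunit of the clamp loader, was at 53.1, 53.5 and 54.1 CPM in OVCAR3 and at 17.8, 17.3 and 17.8 CPM in CCL218, a log2 difference of -1.61 (standard error 0.10, adjusted p = 0.00123). In controls RFC3 overlapped, at 22.6 to 27.7 and 17.6 to 27.1 CPM, and the test of the difference was passed (-1.50, adjusted p = 0.0121). RRM1, the large subunit of ribonucleotide reductase, was at 284, 310 and 331 CPM against 159, 161 and 160 CPM. Of the 12 replication genes called lower, 7 lie on chromosomes 7, 11, 13 or 15, which are treated below with all genes.

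Short, abundant transcripts were measured with less certainty. Cytosolic ribosomal proteins were below 0 in 80 of 80 cases with a median of -0.65, yet 1 was called, RPL21, at 2884, 3785 and 1762 CPM in OVCAR3 and 988, 939 and 842 CPM in CCL218 (log2 difference -1.61, adjusted p = 0.0171). Ribosomal protein genes have many processed pseudogenes that can share reads, which leaves these levels uncertain. Nuclear-encoded respiratory chain subunits had a median of -0.65 as well, with 2 of 73 called, COX8A and NDUFS6 (-1.23 and -1.28). Over all genes 13.6% were called. Without OVCAR3 R, 80 of 80 and 68 of 73 were called lower (33.5% over all genes), with medians of -0.93 and -0.94. With the trend of length and GC content removed the medians were -0.20 and -0.23, with 7 ribosomal genes lower and 0 higher and 9 respiratory genes lower and 3 higher (14.4% and 9.42% over all genes). Control pools showed medians of -0.59 and -0.45. OVCAR3 L and M are the pools with the most reads on short transcripts, and beyond that removal its part in these lists was not tested.

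Genes of the lysosome and of autophagy, the compartment and pathway that HCQ acts on, had list medians near 0. Of 52 tested lysosome and V-ATPase genes 8 were lower and 0 higher (7.23% and 6.39% over all genes), with a median of -0.10, and 5 of the 8 lie on chromosomes 7, 11, 13 or 15. Without OVCAR3 R 22 were lower and 8 higher (33.5% and 34.1% over all genes), and with correction for length and GC content 11 were lower and 5 higher (14.4% and 9.42%). ATP6V1B1, a subunit of the proton pump V-ATPase, was at 86.0, 99.3 and 82.2 CPM in OVCAR3 and at 30.8, 30.5 and 25.3 CPM in CCL218 (log2 difference -1.63, standard error 0.14, adjusted p = 0.00231, edgeR). ATP6V1A and ATP6V1B2 of that pump were not called (-0.07 and 0.003). ATP6V0E2 of the same pump was lower by a like amount (-1.64, adjusted p = 0.00443). CTSD, the lysosomal protease cathepsin D, was at 1582, 1530 and 1762 CPM against 823, 720 and 736 CPM (log2 difference -1.10, adjusted p = 0.00496), and CTSH was lower too (-1.08). ATP6V1B1, CTSD and CTSH were also lower in control CCL218, at -1.10, -0.77 and -0.94, which passed the test only with the block.

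Autophagy genes numbered 4 higher and 1 lower of 42 (6.39% and 7.23% over all genes), with a median of 0.04. Without OVCAR3 R 16 were higher and 14 lower (34.1% and 33.5% over all genes). The cargo receptors TAX1BP1 and CALCOCO2 were higher in CCL218, at 164, 151 and 175 CPM against 255, 269 and 252 CPM for TAX1BP1 and at 50.4, 56.8 and 54.9 CPM against 85.1, 98.4 and 77.9 CPM for CALCOCO2. The log2 differences were 0.66 and 0.68 (adjusted p = 0.0125 and 0.0199). GABARAPL1, a member of the ATG8 family, was higher as well (0.65), and MAP1LC3A of the same family was lower (-1.75).

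Drug handling genes differed singly. Of 34 tested efflux pumps and drug-metabolizing enzymes 3 were higher and 6 lower in CCL218 (6.39% and 7.23% over all genes), and 11 of 33 were higher and 13 lower without OVCAR3 R (34.1% and 33.5%). CYP2S1, a cytochrome P450 of epithelia, was at 54.9, 43.5 and 46.0 CPM in OVCAR3 and at 288, 317 and 311 CPM in CCL218 (log2 difference 2.66, standard error 0.14, adjusted p = 0.00111). CYP2J2, which oxidizes arachidonic acid and many drugs, was at 0.454, 0.656 and 0.469 CPM against 6.03, 7.54 and 6.87 CPM (log2 difference 3.69, adjusted p = 0.00114). In all 6 control libraries CYP2J2 lay at 0.314 to 0.492 CPM, and the test of the difference was passed (3.46, adjusted p = 0.00167). ABCB1, the multidrug efflux pump P-glycoprotein, was low in all pools, at 0.245, 0.231 and 0.837 CPM against 3.90, 4.19 and 3.94 CPM (log2 difference 3.17, adjusted p = 0.0128). CYP24A1, the enzyme that breaks down vitamin D, was lower in CCL218 (-1.87). Targets of NRF2, the regulator of antioxidant enzymes, were lower in 4 of 23 cases and higher in 0 (7.23% and 6.39% over all genes). TALDO1, ME1 and AKR1C3 were among those lower (-1.03, -0.70 and -1.86). Without OVCAR3 R 15 were lower and 2 higher (33.5% and 34.1% over all genes).

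Mucus and secretion genes differed in part. Of 15 mucins and trefoil factors 3 were higher and 2 lower (6.39% and 7.23% over all genes), with a median of 1.10. Without OVCAR3 R 10 were higher and 3 lower (34.1% and 33.5% over all genes), with a median of 0.69. MUC2, the gel-forming mucin of goblet cells, was at 2.46, 1.70 and 1.57 CPM in OVCAR3 and at 13.3, 20.5 and 19.1 CPM in CCL218 (log2 difference 3.20, adjusted p = 0.00236). MUC17, a membrane mucin of the brush border, was higher by 4.47. It reached only 1.89 to 5.82 CPM in CCL218. The adjusted p of MUC17 was 0.00693. Among 36 genes of regulated exocytosis 4 were higher and 3 lower (6.39% and 7.23% over all genes). Without OVCAR3 R 15 were higher and 10 lower (34.1% and 33.5% over all genes). SYTL2, which tethers secretory granules to the membrane through RAB27, was at 5.97, 5.67 and 6.21 CPM against 46.4, 58.1 and 54.9 CPM (log2 difference 3.15, standard error 0.14, adjusted p = 0.00111), and STX1A, a fusion protein of the same step, was lower (-1.18).

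WNT targets went both ways, with 5 higher and 1 lower of 17 (6.39% and 7.23% over all genes) and a median of -0.04. Without OVCAR3 R 8 were higher and 2 lower (34.1% and 33.5% over all genes), with a median of 0.25. PROX1, EPHB2 and EPHB3 were higher in CCL218 (2.97, 2.22 and 2.10) and ASCL2 was lower, as given above. EPHB2, a guidance receptor of the crypt, was at 2.04, 1.79 and 4.70 CPM against 14.9, 12.4 and 12.8 CPM, while the controls lay at 8.42 to 10.6 and 7.03 to 8.34 CPM.

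Lipid genes under SREBP, the factor that senses cholesterol, were higher in 6 of 29 cases (6.39% over all genes) and lower in 0, although the list median was 0.05. Without OVCAR3 R 12 of 29 were higher and 11 lower, shares near those over all genes (34.1% and 33.5%).

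Interferon-stimulated genes were higher in 5 of 46 cases and lower in 1, with a median of 0.32 (6.39% and 7.23% over all genes). Without OVCAR3 R 19 were higher and 10 lower (34.1% and 33.5%). In the control pools the list had 10 of 45 higher and 0 lower (0.941% and 1.08% over all genes) and a median of 0.82. With the block 32 were higher and 4 lower (17.6% and 18.8% over all genes). In the test of the difference 37 of 46 estimates were below 0, with a median of -0.44 (-0.03 over all genes). It called 0 above 0 and 2 below (0.69% and 0.182% over all genes). HERC6 was at 9.71, 9.99 and 10.7 CPM in HCQ-evolved OVCAR3 and at 24.7, 17 and 22.4 CPM in HCQ-evolved CCL218 (log2 difference 1.07, adjusted p = 0.0126), and IFITM2 was lower (-1.53).

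Hypoxia targets outside glycolysis had 5 higher and 2 lower of 28 (6.39% and 7.23% over all genes), and 18 higher and 8 lower without OVCAR3 R (34.1% and 33.5%). NDRG1, a hypoxia-induced growth regulator, was at 1337, 1315 and 690 CPM in OVCAR3 and at 3108, 3483 and 2662 CPM in CCL218 (log2 difference 1.46, adjusted p = 0.0228), and DDIT4, an inhibitor of mTORC1, was lower (-0.98, adjusted p = 0.0209). Glycolytic enzymes had 1 higher and 2 lower of 21 (6.39% and 7.23% over all genes), and 2 higher and 9 lower without OVCAR3 R (34.1% and 33.5%). LDHA was at 3032, 3479 and 3144 CPM against 2233, 2306 and 2020 CPM (log2 difference -0.56, adjusted p = 0.0395, edgeR). Of 36 genes of the unfolded protein and ATF4 response, 4 were lower and 0 higher (7.23% and 6.39% over all genes), among them CEBPB (-1.34) and PHGDH (-0.82). Without OVCAR3 R 12 were lower and 9 higher (33.5% and 34.1% over all genes). CXCL8, a chemokine and NF-kappaB target, was at 9.64, 10.2 and 6.86 CPM against 2.09, 1.82 and 2.16 CPM (log2 difference -2.14, adjusted p = 0.0033, edgeR). It was the 1 NF-kappaB gene of 20 called lower, and 1 was called higher, BIRC2 at 0.55 (7.23% and 6.39% over all genes).

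Matrix and survival genes completed the lists. Of 25 integrins, laminins and matrix glycoproteins 3 were higher and 2 lower (6.39% and 7.23% over all genes), with THBS1 and ITGA1 at 1.33 and 1.02 and COL18A1 at -0.87. The median of this list was 0.07 with OVCAR3 R, 0.52 without it and -0.17 after removal of the length and GC trend. Without OVCAR3 R 15 were higher and 3 lower (34.1% and 33.5% over all genes). In the BCL2 family 2 of 13 were higher (6.39% over all genes), BIK and MCL1 (0.97 and 0.39), with MCL1 just inside the threshold. HLA class I presentation had 1 of 12 called (NLRC5, 1.5), against 13.6% over all genes, and metallothioneins 0 of 3 in edgeR, with 2 at an unadjusted p under 0.05.

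**Figure D4:**
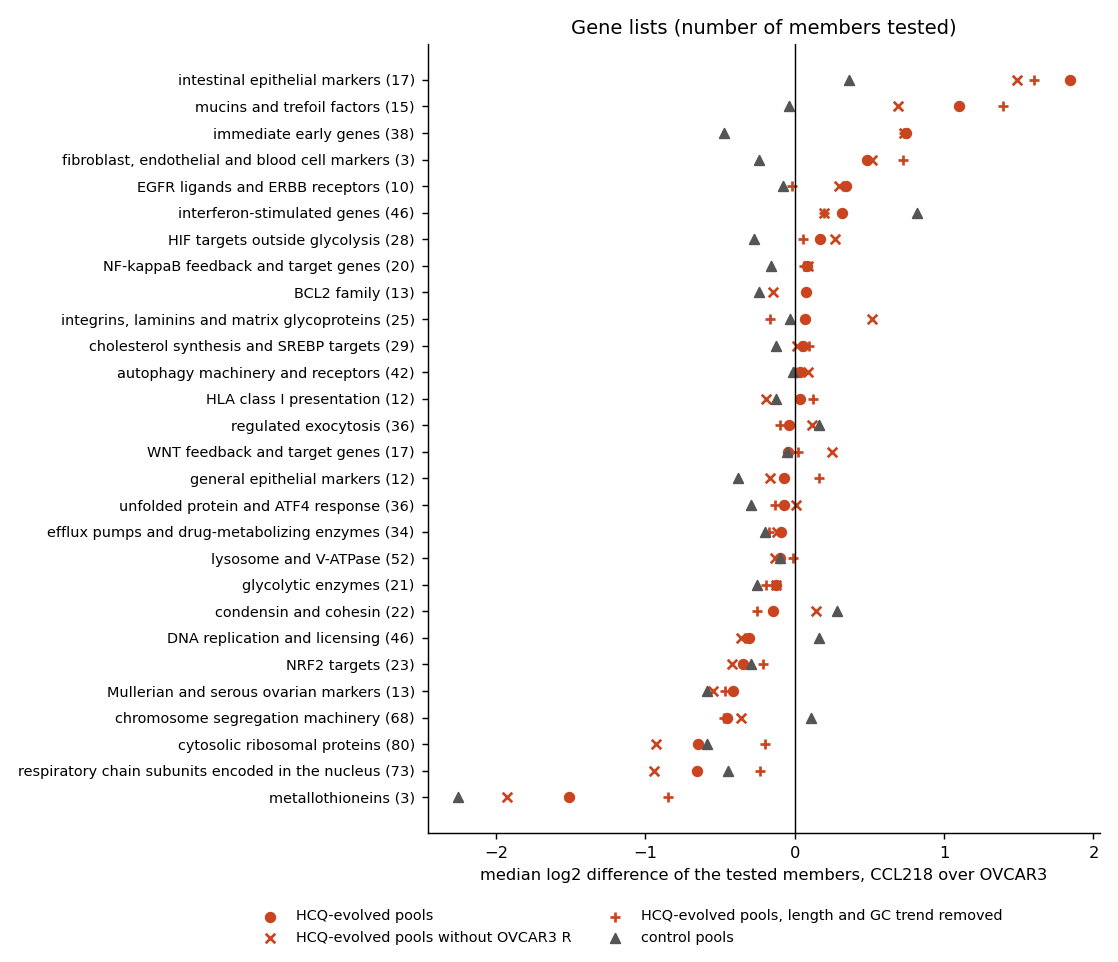
Median log2 difference (CCL218 over OVCAR3) of the tested members of each gene list, in HCQ-evolved pools (circles), in HCQ-evolved pools without OVCAR3 R (crosses) or corrected for length and GC content (plus signs), and in control pools (triangles). The intestinal, mucin and immediate early lists lie highest in HCQ-evolved pools, and the ribosomal and respiratory lists move from about -0.65 to about -0.20 once the trend is removed.

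Lower genes were unevenly spread over the genome. On chromosome 13, 61 of 221 tested genes (27.6%) were lower in HCQ-evolved CCL218 and 8 were higher, with a median of -0.48. Chromosome 11 had 150 of 717 lower (20.9%, median -0.28), chromosome 7 had 89 of 597 (14.9%, median -0.21) and chromosome 15 had 53 of 406 (13.1%, median -0.21), against 7.23% over all genes. On the other chromosomes together 512 of 10072 genes (5.08%) were lower and 666 (6.61%) higher, with a median of 0.03. These 4 chromosomes and their dividing points were picked after their values were seen and are described without a test.

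Within chromosomes, lower genes were grouped by position. On chromosome 7 the 209 genes before 60 Mb (hg38) had a median of 0.02 with 6 lower, and the 388 genes from 60 Mb on a median of -0.29 with 83 lower. On chromosome 11 the 527 genes before 80 Mb had a median of -0.40 with 135 lower, and the 190 genes beyond it a median of 0.12 with 15 lower. Chromosome 13 was lowest at 20 to 40 Mb, where 29 of 66 genes (43.9%) were lower and the median was -0.77. CDX2, which lies in that stretch, was higher in CCL218 all the same. SKA3, RFC3, RPL21 and GJB6 lie on chromosome 13, and CTSD, RRM1 and COX8A on chromosome 11.

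The medians stayed below 0 in other settings. Without OVCAR3 R the medians of chromosomes 7, 11, 13 and 15 were -0.19, -0.28, -0.40 and -0.16, and after removal of the length and GC trend they were -0.24, -0.29, -0.55 and -0.30. Control pools gave 0.08, -0.10, -0.10 and -0.12. In the test of the difference the genes of chromosome 13 before 40 Mb had a median of -0.71 and those of chromosome 7 from 60 Mb a median of -0.38, against -0.03 over all genes.

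Outside these 4 chromosomes 5.08% of all genes were lower and 6.61% higher. The segregation list kept its level there, with 19 of 53 members lower and a median of -0.43. The replication list fell back to 5 of 36 and a median of -0.15. The lysosome list fell to 3 of 41, a share near that over all genes, and a median of 0.00. Immediate early genes had 17 of 35 higher there, with a median of 0.75.

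**Figure D5:**
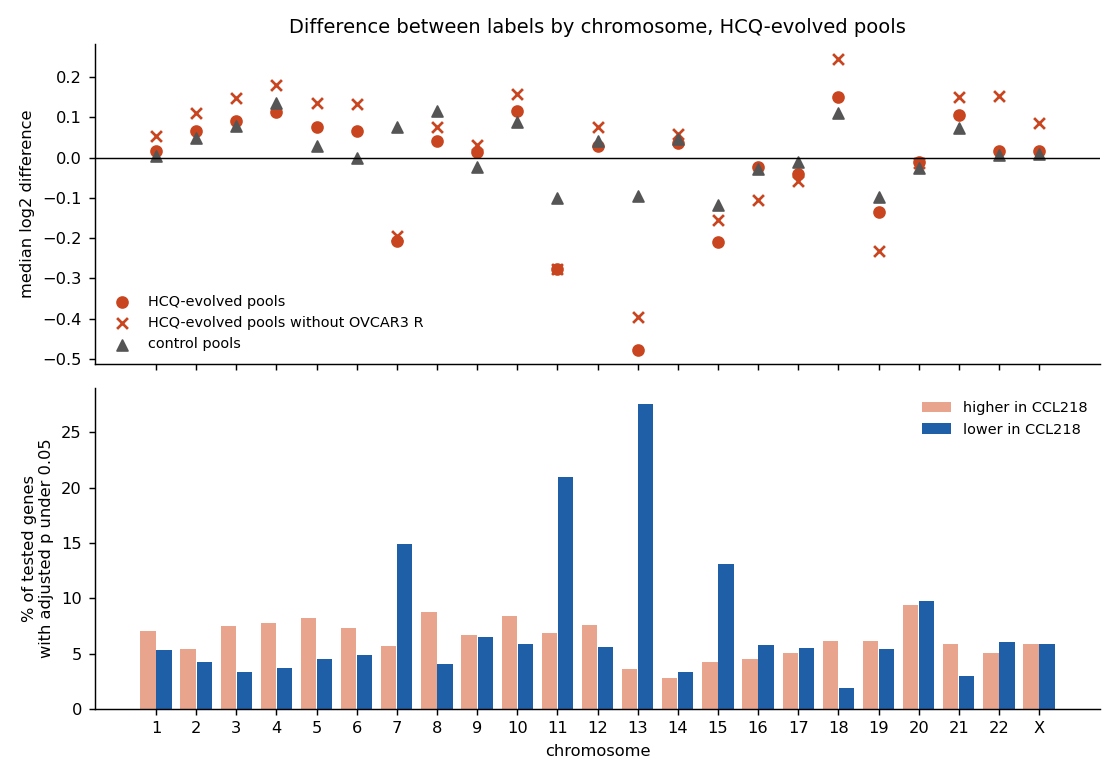
Median log2 difference (CCL218 over OVCAR3) by chromosome (upper panel) for HCQ-evolved pools with and without OVCAR3 R and for control pools, and share of tested genes called higher or lower between HCQ-evolved pools (lower panel, in percent). Chromosomes 7, 11, 13 and 15 stand out with medians of -0.21 to -0.48 and with 13.1% to 27.6% of genes lower.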

How the data were processed

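RNA was sequenced from 12 pools, of which the 6 HCQ-evolved ones enter the main comparison. The authors aligned polyA reads to hg38 with STAR, removed duplicates and counted reads per gene with featureCounts, and deposited whole-number counts for 28278 gene symbols (versions and annotation are not given in the sources used here). Of the entries of 1 to 4 counts, 78.9% were even. Every column was assigned to a sample by its title, and 0 columns were left without one.

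Counts were tested with the quasi-likelihood test of edgeR 4.0.16 (R 4.3.3, TMM scaling, legacy dispersions), with Benjamini-Hochberg adjustment over all tested genes at 0.05. CPM values use TMM factors over 12 libraries. The same fit was made for control pools and, over 12 libraries, for the difference between the line differences. Genes needed at least 1 CPM in at least 3 of the libraries fitted. Positions, lengths and GC content came from GENCODE 44, which held 26193 symbols (92.6%). The length and GC trend was removed by a spline with 4 degrees of freedom, for 98.4% of tested genes. Depth was 47051077 to 59965861 counts, which sets a floor of 3 counts at 0.0501 to 0.0616 CPM. With 3 pools a group an exact permutation test of 1 gene cannot go below p = 0.1.

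Pools of the same plate position were compared by their deviations from the group means. Correlations between labels were 0.65, -0.17 and 0.64 for HCQ-evolved pools, which were therefore not paired. They were 0.90, 0.88 and 0.30 for control pools, for which a fit with a block for position is given beside the main fit. At R the block has little basis, since control OVCAR3 M correlated more with control CCL218 R (0.55) than control OVCAR3 R did. The main control fit and the test of the difference had no block. The members and gene lists were chosen with earlier results of these data known. Named were the 12 largest called differences in each direction with separate pools and at least 5 CPM in the higher group, the member with the smallest p of each list with further called members up to 4, markers at 5 CPM or more, and the 5 genes with the smallest p in the test of the difference. Alternatives were DESeq2 1.42.0, limma 3.58.1 with voom, other scaling, filters and thresholds, a block for position, halved counts, edgeR's newer dispersion method (added after seeing the data), and leaving out each pool. Scripts were tested on simulated data. Results for some members of the gene lists are not reported here, although they remain in the counts.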

Additional observations from a re-analysis of the deposited data

Results flagged for a closer look

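The difference between labels itself differed between HCQ-evolved and control pools for 24 of the genes examined, by the interaction term of the 12-library fit (edgeR, adjusted p under 0.05). Over all genes 110 of 12613 (0.872%) passed. Some of the 24 were picked by their p in this same test or after their values were seen. Their number is thus no measure of how common such differences were. Values are log2, HCQ-evolved minus control, and a positive value means that CCL218 stood higher against OVCAR3 in HCQ-evolved pools than in controls.

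Among immediate early genes the values were 8.44 for EGR3, 4.72 for ATF3, 4.03 for EGR2, 3.60 for CCN2, 2.76 for DUSP5, 2.56 for FOSB, 2.50 for KLF4, 2.03 for JUN and 1.38 for FOS. The value of EGR3 rests on pools near 0 counts and is no bound. The growth regulators HBEGF, CDKN1A and TRIB1 had 3.43, 2.56 and 2.06.

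Intestinal and crypt genes had 3.71 for CDH17, 3.56 for CEACAM6, 2.57 for EPHB2 and 2.07 for CEACAM5. Further positive values were 3.46 for CYP2J2, 3.16 for PLBD1, 2.77 for RASD2 and 1.73 for RAVER2.

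Negative values were -6.48 for SCN9A, -3.93 for PTPN7, -2.31 for NNMT and -1.50 for RFC3. SCN9A and PTPN7 were highest in HCQ-evolved OVCAR3 R among all libraries.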

How the results depend on the processing

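Called genes between HCQ-evolved pools (780 higher, 882 lower) numbered 1474 and 1792 with DESeq2, 499 and 573 with a 10 CPM filter, and 223 and 198 at an adjusted p of 0.01. Removing the length and GC trend gave 1150 and 1759, and 1079 and 1615 with a block for position, while the block alone gave 728 and 732. Leaving out single pools gave 81 to 4111 higher and 71 to 4038 lower, the highest without OVCAR3 R. The other alternatives stayed within 1.5 times of both counts.

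Between control pools (116 higher, 133 lower) the counts were 313 and 421 with DESeq2, 38 and 43 with the 10 CPM filter, 175 and 219 with no filter, 32 and 26 at 0.01, 215 and 304 without the length and GC trend, 2163 and 2314 with the block for position, and 1948 and 2104 with both. A fit of all 12 libraries gave 246 lower. Leaving out single pools gave 15 to 161 higher and 10 to 310 lower.

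For the test of the difference (87 above 0, 23 below) the counts were 306 and 157 with DESeq2, 50 and 9 with the 10 CPM filter, 33 and 2 at 0.01, 244 and 210 without the trend, and 265 and 231 with the block in addition. The block alone gave 110 and 32. Leaving out single pools gave 35 to 163 and 3 to 49. The cause of these shifts was not tested. OVCAR3 R, the even counts and groups of 3 pools from 1 plate limit all comparisons.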
